A study of Mus musculus with 8 samples.

Results

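Amino acid transporters are membrane proteins that carry amino acids into cells, out of cells, or out of lysosomes into the cytosol. Their genes were followed here at 6 h of cytokine and endotoxin treatment in macrophages that had been derived from mouse bone marrow, cells whose main task is to engulf and digest. The members are all genes named to the solute carrier families SLC1, SLC3, SLC6, SLC7, SLC36, SLC38 and SLC43 that had a probe set with 1 symbol on the array, which gave 64 of the 19938 named genes. The rule uses names and no measured value, although the set was proposed with earlier results of these data known. The name rule also admits carriers of the SLC6 family that move monoamines, creatine, taurine or betaine, and 2 genes, Slc6a19os and Slc7a6os, that are named for lying opposite a transporter gene and are not transporters.

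RNA from 8 samples was measured on 8 Affymetrix mouse gene arrays, with 2 arrays in each of 4 groups. Cells were left untreated for 6 h, or were treated for 6 h with IFN-γ and LPS (IFN-γ/LPS, the stimulus usually called classical activation), with IL-4 and IL-13 (IL-4/IL-13, called alternative activation), or with all of LPS, IL-4 and IL-13 (LPS/IL-4/IL-13, here the combination). No group received LPS alone or IFN-γ alone, so the 2 groups with LPS differ both in IFN-γ and in IL-4 and IL-13. The sources used here do not give the mouse strain, the doses, or whether replicate arrays had separate cultures or animals behind them. The p-values therefore cover the spread between these arrays alone, and that spread may be technical.

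Macrophage activation makes heavy use of amino acids. Arginine feeds inducible nitric oxide synthase under IFN-γ and LPS and arginase 1 under IL-4, and it enters mainly through cationic amino acid transporters of the SLC7 family. Cystine enters in exchange for glutamate through the Slc7a11 light chain and supplies cysteine for glutathione. Most other SLC7 proteins are light chains that need a heavy chain, encoded by Slc3a2 or Slc3a1, to reach the plasma membrane. A further set, in the SLC36 and SLC38 families, lies on lysosomes, where it releases amino acids from digested protein and, for Slc38a9, reports arginine to the growth kinase complex mTORC1.

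The values are log2 signals, so a difference of 1 is a 2-fold change, and levels of different genes are not set against each other because each probe set has its own brightness. Array medians lay between 6.12 and 6.20. Replicate arrays differed by a median of 0.09 to 0.115 over the members, depending on the group, and by at most 0.66. The array gave no detection calls, and 31 of the 64 members lay above the 40th percentile of all genes by mean signal (5.91), while 33 lay at or below it. All 7 macrophage markers (among them Csf1r, Adgre1 and Cd68) stood above the array median in every group, with a summed log2 signal of 84.72 to 84.84 untreated, 82.77 to 82.94 under IFN-γ/LPS, 81.15 to 81.16 under IL-4/IL-13 and 82.54 to 82.91 under the combination. Of these 7, 5 were called lower and 1 higher than untreated under both IFN-γ/LPS and the combination, and 3 lower under IL-4/IL-13. Over all genes, 28.4% fell under IFN-γ/LPS, 25.4% under the combination and 12.3% under IL-4/IL-13. The widest fall was that of Mertk under IL-4/IL-13 (-1.51), and opposite changes can cancel in such a sum. None of the 3 B cell or 4 mast cell markers stood above the array median in any group. Of 5 dendritic cell markers, 0 stood above the median untreated and 2 did in both LPS groups, with sums of 26.84 to 27.14 untreated, 31.78 to 31.96 under IFN-γ/LPS, 28.27 to 28.61 under IL-4/IL-13 and 30.37 to 31.03 under the combination. Of the 5 fibroblast markers, 3 stood above the median untreated and under IL-4/IL-13, and 4 in both LPS groups. Their sums were 33.28 to 33.38 untreated, 34.72 to 35.14 under IFN-γ/LPS, 33.56 to 33.97 under IL-4/IL-13 and 35.36 to 35.58 under the combination. Only Dcn of these was called higher than untreated, in both LPS groups. Of the 5 T and NK cell markers, 1 stood above the median untreated and 3 under IFN-γ/LPS, with sums from 28.5 to 29.34 over all arrays, and Cd4 fell by 0.96, fell by 0.89 and fell by 1.04 in the 3 comparisons with untreated. Of the 5 neutrophil markers, 2 stood above the median untreated and 0 in both LPS groups, with sums from 29.29 to 30.42. At most 1 of the 3 erythroid markers did in any group, with sums from 16.74 to 17.75. The part of these shifts in the results that follow was not tested, and in such bulk RNA fewer cells of a type and less RNA per cell cannot be told apart.

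Transporters rose and fell under all 3 stimuli, and in each the widest rise was that of Slc7a2 and the widest fall that of Slc43a2. A gene was called where limma's adjusted p over all 19938 genes was under 0.05. Under IFN-γ/LPS, 13 of the 64 members rose and 13 fell, which is 40.6% of them beside 51.9% of all genes (20.3% higher beside 23.6%, and 20.3% lower beside 28.4%). Of these, 3 rose and 8 fell by at least 2-fold. IL-4/IL-13 raised 10 members and lowered 5, which is 23.4% beside 20.2% of all genes (15.6% higher beside 7.83%, and 7.81% lower beside 12.3%). The combination raised 17 and lowered 10, which is 42.2% beside 45.6% of all genes (26.6% higher beside 20.3%, and 15.6% lower beside 25.4%). Over both directions together, the members' share lay below that of all genes under IFN-γ/LPS and near it under IL-4/IL-13 and the combination. By direction, the share that rose lay above that of all genes under IL-4/IL-13 and the combination, and the share that fell lay below it in all 3 comparisons. Their median log2 difference was 0.15 under IFN-γ/LPS, 0.14 under IL-4/IL-13 and 0.20 under the combination, beside 0.105, 0.07 and 0.09 over all genes. Centring each array on its median moved the split of calls under IL-4/IL-13 to 7 higher and 6 lower. The count of 10 higher genes under IL-4/IL-13 was 5 without either untreated array and 6 without either IL-4/IL-13 array, and the 17 of the combination became 11 without untreated array 1.

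**Figure D1:**
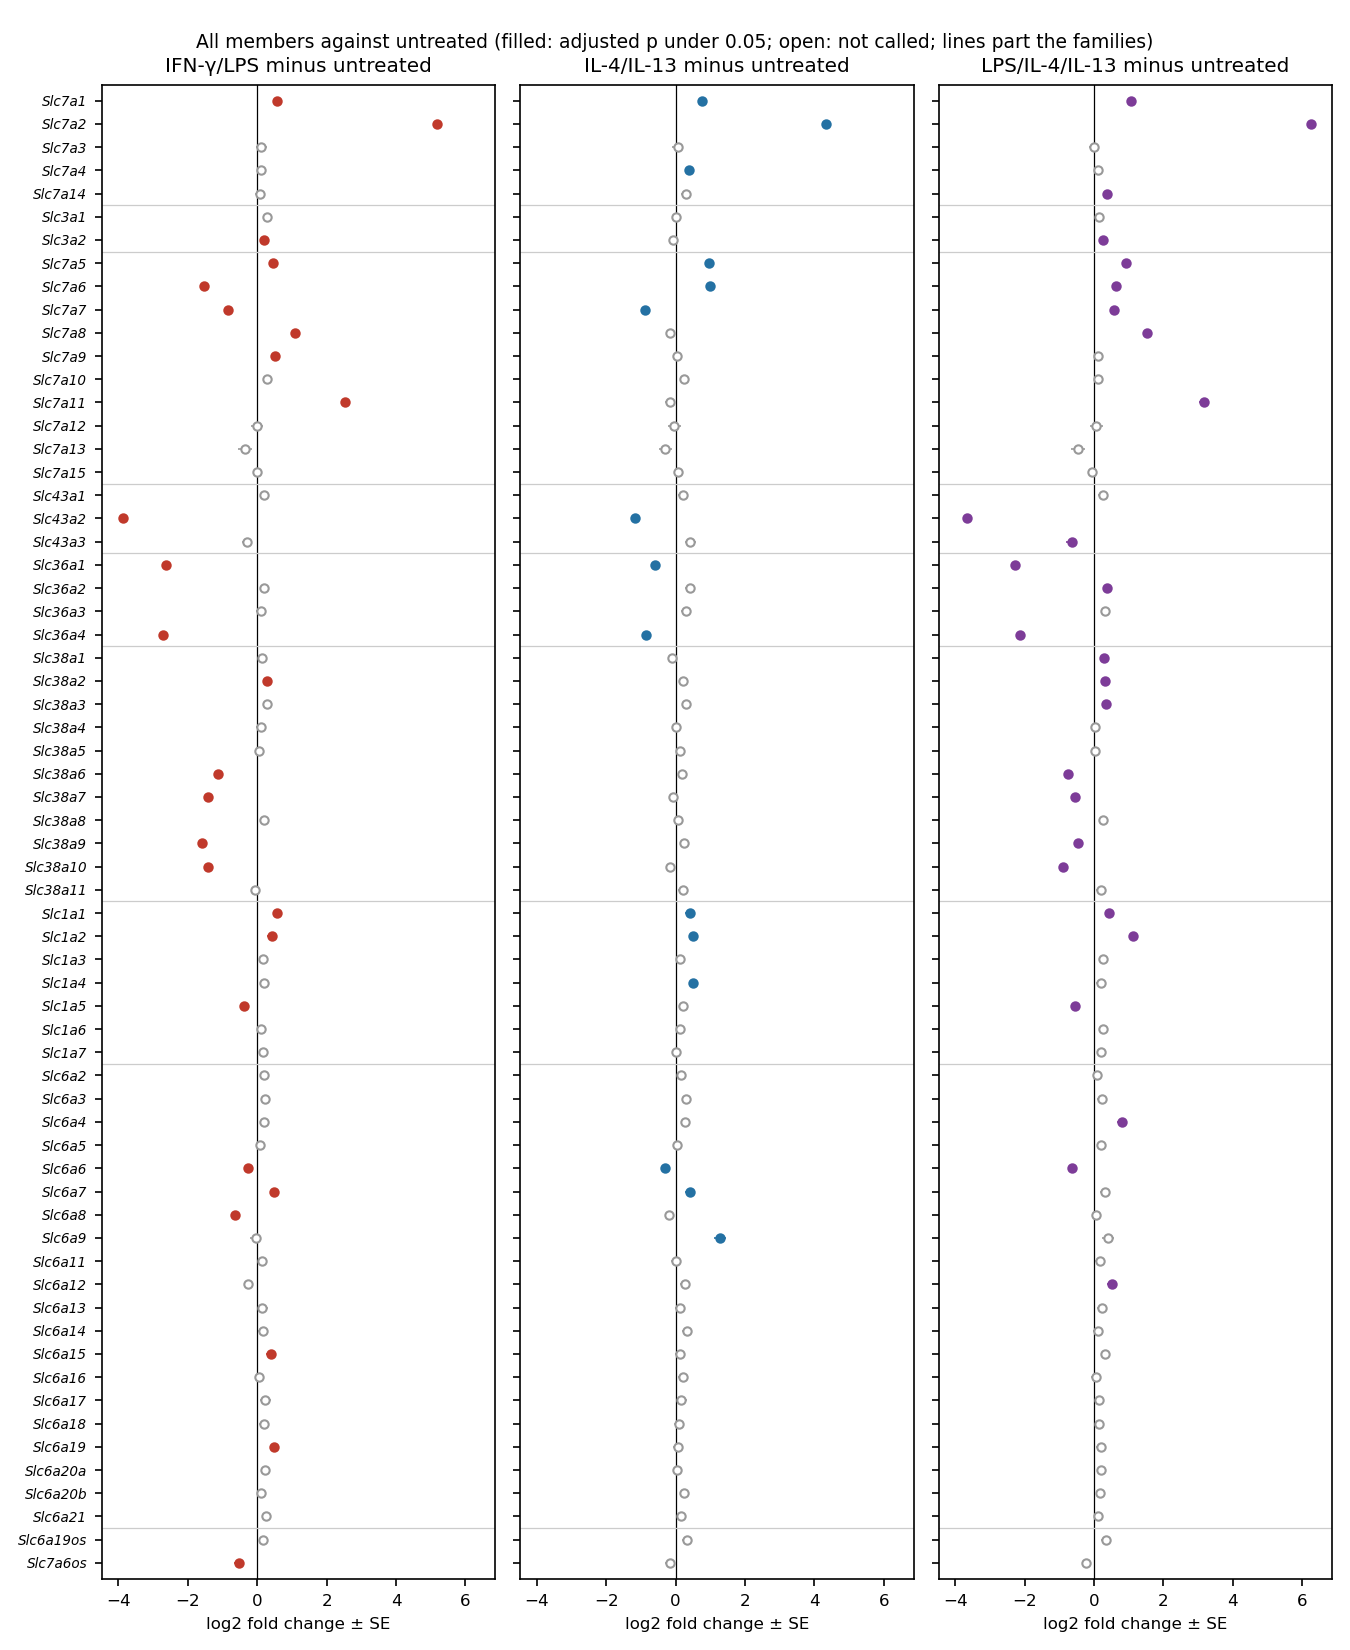
Log2 fold change ± standard error (x axis) of each of the 64 members (y axis, grouped by family with grey lines between families) for the 3 stimuli against untreated, 2 arrays per group; filled points have an adjusted p under 0.05. The widest changes are the rises of Slc7a2 (5.19, 4.34 and 6.26) and the falls of Slc43a2 (-3.85, -1.17 and -3.67), while most SLC6 genes lie near 0.

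In all, 36 members changed in at least 1 of the 3 comparisons, and 28 in none. Over all genes, 60.5% changed in at least 1. Of the 28, 24 were among the dim members, and their log2 differences from untreated ran from -0.46 (Slc7a13) to 0.35 (Slc6a19os). The 14 members that changed by at least 2-fold against untreated, with groups that did not overlap, are Slc7a1, Slc7a2, Slc7a6, Slc7a8, Slc7a11, Slc43a2, Slc36a1, Slc36a4, Slc38a6, Slc38a7, Slc38a9, Slc38a10, Slc1a2 and Slc6a9. All lie among the 31 above 5.91 by the mean over all arrays, a mean to which the change itself contributes. Slc7a11 and Slc1a2 lay below that level untreated and are above it through the groups in which they were high.

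The cationic amino acid transporters, which carry arginine, lysine and ornithine, showed the largest rise of all members. Of the 5 genes of this subfamily, 2 rose under IFN-γ/LPS, 3 under IL-4/IL-13 and 3 under the combination, and none fell in any comparison with untreated. Among all genes, 23.6%, 7.83% and 20.3% rose and 28.4%, 12.3% and 25.4% fell in the same comparisons. Slc7a2 encodes the inducible arginine carrier of this subfamily. Its log2 signal was 6.28 and 6.14 on the 2 untreated arrays, 11.40 and 11.40 under IFN-γ/LPS, 10.58 and 10.52 under IL-4/IL-13, and 12.51 and 12.43 under the combination. The 4 groups did not overlap, with untreated far below and the combination on top. Slc7a2 was 36.5-fold higher under IFN-γ/LPS (log2 5.19 ± 0.08 SE, adjusted p = 6.15e-13), 20.3-fold higher under IL-4/IL-13 (4.34 ± 0.08, adjusted p = 4.06e-11) and 76.6-fold higher under the combination (6.26 ± 0.08, adjusted p = 3.99e-13). The combination also exceeded IFN-γ/LPS, by 1.07 ± 0.08 (adjusted p = 1.07e-06), and IL-4/IL-13, by 1.92 ± 0.08 (adjusted p = 1.4e-09). IFN-γ/LPS lay 0.85 ± 0.08 above IL-4/IL-13 (adjusted p = 1.57e-06).

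Slc7a1, the widely expressed arginine carrier of the subfamily, also rose in all 3 stimulated groups, with far smaller steps. Its signal was 7.10 and 7.24 untreated, 7.73 and 7.75 under IFN-γ/LPS, 7.95 and 7.94 under IL-4/IL-13, and 8.29 and 8.18 under the combination. All 3 stimulated groups lay above untreated without overlap. The rises were 0.57 ± 0.10 (adjusted p = 0.000323), 0.78 ± 0.10 (adjusted p = 0.000126) and 1.07 ± 0.10 (adjusted p = 1.71e-06). The combination exceeded IFN-γ/LPS by 0.50 ± 0.10 (adjusted p = 0.00291). Its step above IL-4/IL-13 was 0.29 ± 0.10 (adjusted p = 0.0335), and this call was lost without untreated array 1 (adjusted p = 0.0502) or 2 (0.0506), IL-4/IL-13 array 1 (0.109) or 2 (0.118), or combination array 1 (0.127), and with only the 4 arrays compared. Slc7a4 and Slc7a14, placed in the subfamily by sequence, were called in 1 comparison each. Slc7a4 was higher by 0.40 ± 0.12 under IL-4/IL-13 (adjusted p = 0.0319), which no longer passed without any 1 of the untreated or IL-4/IL-13 arrays (adjusted p from 0.0547 to 0.256), nor after quantile normalization (0.27, adjusted p = 0.115) or median centring. Slc7a14 was higher by 0.38 ± 0.14 under the combination (adjusted p = 0.0369), which did not pass without untreated array 1 (0.3) or without combination array 1 (0.0765) or 2 (0.13), nor after quantile normalization (0.25, adjusted p = 0.125). Slc7a3, the neuronal member, differed from untreated by at most 0.12 and was not called.

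**Figure D2:**
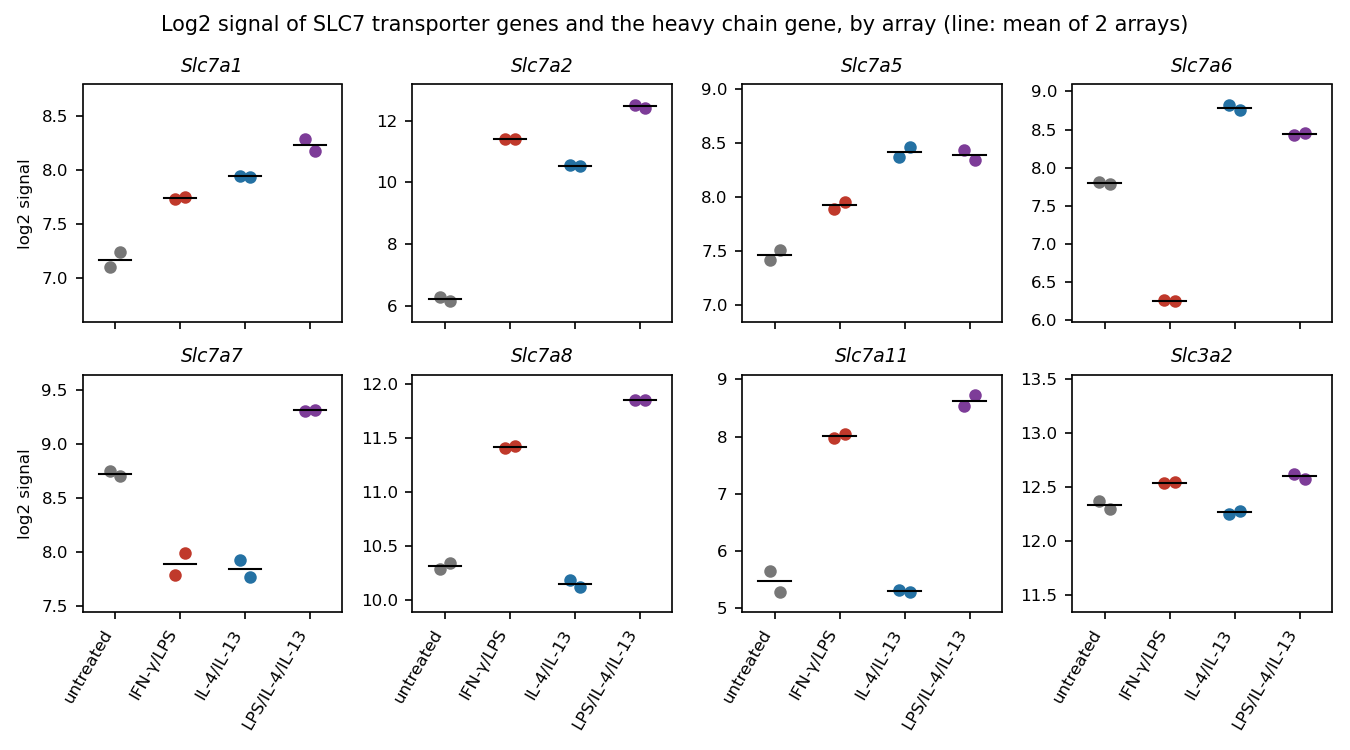
Log2 signal (y axis) of Slc3a2 and 7 SLC7 genes on each of the 8 arrays, by group (x axis); each point is 1 array and each line the mean of 2. Slc7a2 rises from 6.14 and 6.28 untreated to above 10 in every stimulated group, and Slc7a6 and Slc7a7 each fall in 1 group with LPS and rise in the other.

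Among the 10 light chains, 4 rose and 2 fell under IFN-γ/LPS, beside 23.6% and 28.4% of all genes. Under IL-4/IL-13, 2 rose and 1 fell, beside 7.83% and 12.3%, and under the combination 5 rose and 0 fell, beside 20.3% and 25.4%. Slc7a11, the light chain of the cystine and glutamate exchanger, gave the largest rise among them. Its signal was 5.65 and 5.28 untreated, 7.98 and 8.04 under IFN-γ/LPS, 5.31 and 5.28 under IL-4/IL-13, and 8.54 and 8.72 under the combination. Both groups with LPS lay above both groups without it, and untreated and IL-4/IL-13 overlapped. Slc7a11 rose 5.84-fold under IFN-γ/LPS (2.54 ± 0.13, adjusted p = 6.39e-09) and 8.97-fold under the combination (3.16 ± 0.13, adjusted p = 1.18e-09). These are ratios of signals, and the untreated signal, below 5.91, is not shown to be above background. The difference under IL-4/IL-13 was -0.17 ± 0.13 (adjusted p = 0.377), and it turned to 0.01 without untreated array 1. The combination exceeded IFN-γ/LPS by 0.62 ± 0.13 (adjusted p = 0.00424) and IL-4/IL-13 by 3.33 ± 0.13 (adjusted p = 9.45e-10).

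The 250 bases before the annotated start of Slc7a11 are shown because this gene has known amino acid response elements, sites bound by ATF4 when amino acids run short, and because Atf4 itself moved in these arrays. The sequence is RefSeq's in build GRCm38.p6, at chr3:50443614-50443863 on the minus strand, and capitals mark matches to the element TGATGNAA on either strand.
Slc7a11: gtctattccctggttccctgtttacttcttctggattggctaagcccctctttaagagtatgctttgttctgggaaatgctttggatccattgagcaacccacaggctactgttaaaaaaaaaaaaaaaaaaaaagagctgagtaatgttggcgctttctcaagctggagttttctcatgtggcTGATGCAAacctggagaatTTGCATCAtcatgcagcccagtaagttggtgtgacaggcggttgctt
The 2 matches lie at -66 to -59 and at -47 to -40 from the start, in opposite orientations. The element is found in the same window of 3.45% of the 32851 promoters of the RefSeq table and of 4 of the 68 promoters of the 47 members that matched it. The window also holds a match to another searched motif, TTCNNNGAA, at -183 to -175. That motif was found in 7.02% of all promoters and in 4 of the 68 member promoters. A match is a description of letters and not a measured site, and a part of ATF4 in the rise of Slc7a11 was not tested. Atf4 rose by 1.33 ± 0.09 under IFN-γ/LPS (adjusted p = 9.41e-08), and 2.84-fold under the combination (adjusted p = 3.98e-08). Under IL-4/IL-13 it rose by 0.34 ± 0.09 (adjusted p = 0.019), a call that held in 12 of 15 alternative settings.

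Slc7a8 encodes a light chain for large and small neutral amino acids. Its signal was 10.29 and 10.34 untreated, 11.41 and 11.43 under IFN-γ/LPS, 10.18 and 10.12 under IL-4/IL-13, and 11.85 and 11.85 under the combination. As for Slc7a11, the LPS groups stood above the others without overlap. Slc7a8 rose 2.15-fold under IFN-γ/LPS (1.11 ± 0.06, adjusted p = 2.2e-08) and 2.90-fold under the combination (1.54 ± 0.06, adjusted p = 1.47e-09). It differed by -0.16 ± 0.06 under IL-4/IL-13 (adjusted p = 0.0935), which passed after median centring (-0.21, adjusted p = 0.0462). The combination was 0.43 ± 0.06 above IFN-γ/LPS (adjusted p = 0.000394).

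Slc7a6 and Slc7a7 encode the pair of light chains that export arginine and other cationic amino acids in exchange for neutral ones and sodium, and each changed sign between stimuli. Slc7a6 read 7.81 and 7.79 untreated, 6.27 and 6.25 under IFN-γ/LPS, 8.82 and 8.75 under IL-4/IL-13, and 8.43 and 8.46 under the combination. No 2 groups overlapped, IFN-γ/LPS was lowest and IL-4/IL-13 highest. The gene fell 2.91-fold under IFN-γ/LPS (-1.54 ± 0.09, adjusted p = 2.59e-08), rose 1.98-fold under IL-4/IL-13 (0.99 ± 0.09, adjusted p = 1.03e-05) and rose 1.56-fold under the combination (0.64 ± 0.09, adjusted p = 7.88e-05). The 2 groups with LPS differed by 2.18 ± 0.09 (adjusted p = 1.39e-08), the widest difference of any member between them. The combination lay below IL-4/IL-13 by 0.34 (-0.34 ± 0.09, adjusted p = 0.00983), a call lost without IL-4/IL-13 array 1 (-0.31, adjusted p = 0.0723). Slc7a6os, named for the strand opposite Slc7a6, fell under IFN-γ/LPS (-0.54 ± 0.12, adjusted p = 0.00226), though not after quantile normalization (-0.17, adjusted p = 0.235). It differed from untreated by -0.17 ± 0.12 under IL-4/IL-13 (adjusted p = 0.322).

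Slc7a7 fell under IFN-γ/LPS and under IL-4/IL-13 and rose under the combination. It read 8.75 and 8.71 untreated, 7.79 and 7.99 under IFN-γ/LPS, 7.93 and 7.77 under IL-4/IL-13, and 9.31 and 9.32 under the combination. The 2 fallen groups overlapped each other, and the combination lay above every other array. The changes were -0.84 ± 0.10 (adjusted p = 1.57e-05), -0.88 ± 0.10 (adjusted p = 5.86e-05) and 0.58 ± 0.10 (adjusted p = 0.000399). The combination exceeded IFN-γ/LPS by 1.43 ± 0.10 (adjusted p = 8.3e-07) and IL-4/IL-13 by 1.47 ± 0.10 (adjusted p = 1.55e-07). Of the 64 members, Slc7a7 was the only one with this pattern of calls, lower under both and higher under the combination. A stretch before one of its annotated starts is shown, since it holds a match to the NF-κB consensus and NF-κB is activated by LPS. The stretch is at chr14:54417807-54417836 on the minus strand of GRCm38.p6, from -157 to -128, and the match is in capitals.
Slc7a7: cgctgcccctGGGACTTCCCggcctgggtt
The consensus was found on either strand in 7.25% of all promoters and in 8 of the 68 member promoters. Those 8 include overlapping windows of Slc7a7 that hold the same site. They also include Slc43a2, which fell in both LPS groups, and Slc1a6, which is dim and was not called. Other windows of Slc7a7 hold matches to TGATGNAA. A part of NF-κB in the changes of Slc7a7 was not tested.

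Slc7a5 encodes the light chain that brings in leucine, tryptophan and other large neutral amino acids. It read 7.42 and 7.51 untreated, 7.89 and 7.96 under IFN-γ/LPS, 8.37 and 8.47 under IL-4/IL-13, and 8.44 and 8.35 under the combination. It was higher in all 3 stimulated groups, and the 2 groups with IL-4 overlapped. The rises were 0.46 ± 0.09 (adjusted p = 0.00142), 0.95 ± 0.09 (adjusted p = 1.88e-05) and 0.93 ± 0.09 (adjusted p = 4.77e-06). Combination and IL-4/IL-13 differed by -0.02 ± 0.09 (adjusted p = 0.889), and IFN-γ/LPS lay 0.50 below IL-4/IL-13 (-0.50 ± 0.09, adjusted p = 0.00088). Slc7a9, the kidney light chain of cystine uptake, is among the dim members and was called under IFN-γ/LPS (0.50 ± 0.12, adjusted p = 0.00362). The other light chains, Slc7a10, Slc7a12, Slc7a13 and Slc7a15, were not called against untreated.

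The heavy chain gene Slc3a2, whose product (CD98) pairs with Slc7a5, Slc7a6, Slc7a7, Slc7a8 and Slc7a11, varied little beside its partners. It read 12.37 and 12.29 untreated, 12.53 and 12.54 under IFN-γ/LPS, 12.25 and 12.27 under IL-4/IL-13, and 12.62 and 12.57 under the combination. The LPS groups lay above the others without overlap. Slc3a2 rose by 0.27 ± 0.05 under the combination (adjusted p = 0.00124) and by 0.21 ± 0.05 under IFN-γ/LPS (adjusted p = 0.00615). The IFN-γ/LPS call was lost without untreated array 2 (0.16, adjusted p = 0.0714), without a mean-variance trend (adjusted p = 0.0793) and after quantile normalization (0.06, adjusted p = 0.318). Under IL-4/IL-13 the difference was -0.07 ± 0.05 (adjusted p = 0.375). Slc3a1, the heavy chain of kidney and gut, is dim and was not called.

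The widest falls lay outside the SLC7 family. Slc43a2 encodes a carrier that lets branched-chain and aromatic amino acids cross by facilitated diffusion. Its signal was 10.71 and 10.63 untreated, 6.72 and 6.91 under IFN-γ/LPS, 9.55 and 9.44 under IL-4/IL-13, and 7.02 and 6.98 under the combination. All stimulated groups lay below untreated, the 2 with LPS far below. Slc43a2 was 14.5-fold lower under IFN-γ/LPS (-3.85 ± 0.10, adjusted p = 1.78e-11), 12.7-fold lower under the combination (-3.67 ± 0.10, adjusted p = 3.07e-11) and 2.26-fold lower under IL-4/IL-13 (-1.17 ± 0.10, adjusted p = 4.35e-06). The 2 LPS groups differed from each other by 0.19 ± 0.10 (adjusted p = 0.257). Slc43a3, known as a purine nucleobase carrier, read 7.94 and 7.97 untreated, 7.48 and 7.86 under IFN-γ/LPS, 8.48 and 8.28 under IL-4/IL-13, and 7.10 and 7.52 under the combination. The 2 LPS groups overlapped, and both IL-4/IL-13 arrays lay on top. It was 2.10-fold lower under the combination than under IL-4/IL-13 (-1.07 ± 0.15, adjusted p = 0.00011). Against untreated it fell under the combination (-0.65 ± 0.15, adjusted p = 0.00434), though not after quantile normalization (-0.34, adjusted p = 0.0912).

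**Figure D3:**
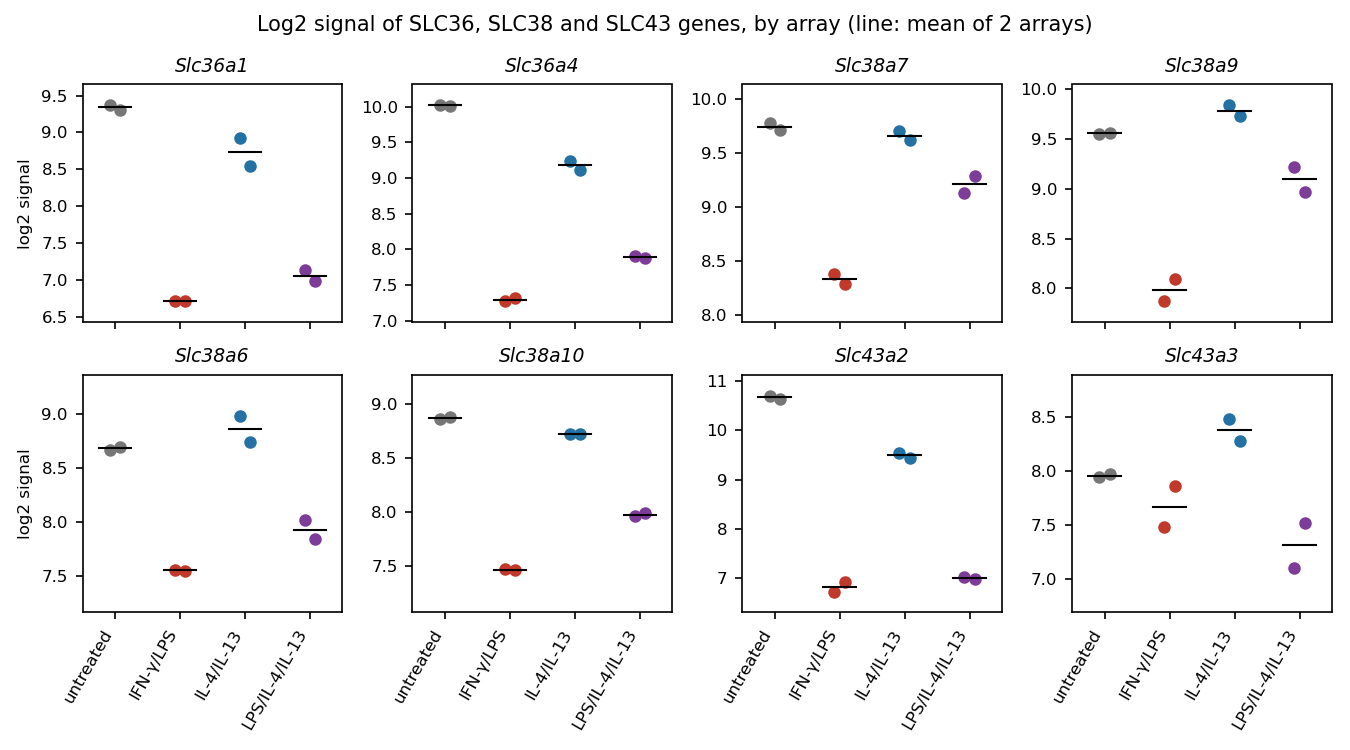
Log2 signal (y axis) of 8 SLC36, SLC38 and SLC43 genes on each of the 8 arrays, by group (x axis); each point is 1 array and each line the mean of 2. In Slc36a1, Slc36a4, Slc38a6, Slc38a7, Slc38a9, Slc38a10 and Slc43a2 both groups with LPS lie below untreated, and in Slc38a7 and Slc38a9 the combination stands 0.88 and 1.12 above IFN-γ/LPS.

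The carriers of the SLC36 family export amino acids from lysosomes or take them up at the cell surface. Of its 4 genes, 2 fell under each stimulus, and they were the 2 that are not dim. Of all genes, 28.4% fell under IFN-γ/LPS, 12.3% under IL-4/IL-13 and 25.4% under the combination. Of the dim pair, Slc36a2 was higher under the combination (0.38 ± 0.13, adjusted p = 0.0371), a call that held in 10 of 14 alternative settings. Slc36a1 read 9.37 and 9.31 untreated, 6.71 and 6.71 under IFN-γ/LPS, 8.93 and 8.55 under IL-4/IL-13, and 7.13 and 6.98 under the combination. No 2 groups overlapped, and the order was untreated, IL-4/IL-13, combination, IFN-γ/LPS. It fell 6.19-fold under IFN-γ/LPS (-2.63 ± 0.12, adjusted p = 3.28e-09) and 4.87-fold under the combination (-2.28 ± 0.12, adjusted p = 1.46e-08). The fall under IL-4/IL-13 was smaller (-0.60 ± 0.12, adjusted p = 0.00441), and did not pass without untreated array 1 (-0.57, adjusted p = 0.0581) or without IL-4/IL-13 array 2 (-0.41, adjusted p = 0.0604). Slc36a4, a high-affinity carrier of proline and tryptophan, read 10.02 and 10.01 untreated, 7.27 and 7.32 under IFN-γ/LPS, 9.24 and 9.11 under IL-4/IL-13, and 7.90 and 7.87 under the combination. It held the same order as Slc36a1, again without overlap. It fell 6.59-fold under IFN-γ/LPS (-2.72 ± 0.09, adjusted p = 1.41e-10), 1.79-fold under IL-4/IL-13 (-0.84 ± 0.09, adjusted p = 3.05e-05) and 4.38-fold under the combination (-2.13 ± 0.09, adjusted p = 1.43e-09). The combination lay 0.59 ± 0.09 above IFN-γ/LPS for Slc36a4 (adjusted p = 0.000417), while the same step in Slc36a1 was 0.35 ± 0.12 (adjusted p = 0.076). That step in Slc36a1 passed with the dim genes left out (adjusted p = 0.0395) and without IL-4/IL-13 array 1 (0.0378) or 2 (0.0376).

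In the SLC38 family of neutral amino acid carriers, 4 of 11 genes fell and 1 rose under IFN-γ/LPS, none was called under IL-4/IL-13 and 4 fell and 3 rose under the combination. The called share was 45.5%, 0% and 63.6% of the family, beside 51.9%, 20.2% and 45.6% of all genes. The count of 0 under IL-4/IL-13 is from limma over all genes, with 1 of the 11 at an unadjusted p under 0.05 (Slc38a3). After quantile normalization Slc38a6 (0.32, adjusted p = 0.03) and Slc38a9 (0.32, adjusted p = 0.0214) were higher there. Slc38a9 encodes the lysosomal arginine sensor of mTORC1. It read 9.55 and 9.56 untreated, 7.87 and 8.09 under IFN-γ/LPS, 9.84 and 9.73 under IL-4/IL-13, and 9.22 and 8.97 under the combination. No 2 groups overlapped, with IFN-γ/LPS at the bottom. Slc38a9 fell 2.98-fold under IFN-γ/LPS (-1.58 ± 0.11, adjusted p = 9.75e-08) and 1.38-fold under the combination (-0.46 ± 0.11, adjusted p = 0.0038), so that the combination lay 1.12 ± 0.11 above IFN-γ/LPS (adjusted p = 1.19e-05). A dimmer probe set of the same gene differed from untreated by -0.49, 0.30 and -0.26 in the 3 stimuli, the same directions with smaller sizes.

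Slc38a7 encodes the carrier that lets glutamine and asparagine out of lysosomes. It read 9.78 and 9.71 untreated, 8.38 and 8.29 under IFN-γ/LPS, 9.70 and 9.62 under IL-4/IL-13, and 9.13 and 9.29 under the combination. The LPS groups lay below the others and IFN-γ/LPS below the combination. Slc38a7 fell 2.66-fold under IFN-γ/LPS (-1.41 ± 0.09, adjusted p = 5.06e-08) and 1.45-fold under the combination (-0.53 ± 0.09, adjusted p = 0.000322), a step of 0.88 ± 0.09 between them (adjusted p = 1.91e-05). Slc38a10, a carrier of glutamine, glutamate and aspartate, read 8.86 and 8.88 untreated, 7.47 and 7.46 under IFN-γ/LPS, 8.72 and 8.72 under IL-4/IL-13, and 7.96 and 7.99 under the combination. The order was the same as for Slc38a7. It fell 2.65-fold under IFN-γ/LPS (-1.41 ± 0.09, adjusted p = 3.83e-08) and 1.86-fold under the combination (-0.90 ± 0.09, adjusted p = 2.88e-06), and the 2 differed by 0.51 ± 0.09 (adjusted p = 0.00103). Slc38a6, a less studied member, read 8.67 and 8.70 untreated, 7.56 and 7.55 under IFN-γ/LPS, 8.98 and 8.74 under IL-4/IL-13, and 8.02 and 7.84 under the combination. It too was lowest under IFN-γ/LPS. Slc38a6 fell 2.19-fold there (-1.13 ± 0.11, adjusted p = 1.86e-06) and 1.69-fold under the combination (-0.76 ± 0.11, adjusted p = 8.01e-05). Its step between the LPS groups was 0.37 ± 0.11 (adjusted p = 0.0265), and it was lost in 7 of the 15 alternative settings, including without either untreated array, either IFN-γ/LPS array or combination array 1 (adjusted p from 0.0558 to 0.128).

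Short stretches before the starts of Slc36a1 and Slc38a7 are shown because these lysosomal members fell in both LPS groups and hold an E-box. Both stretches carry it as the palindrome CACGTG, the core of the element bound by the lysosomal gene regulator TFEB. They are from RefSeq in GRCm38.p6, at chr11:55204297-55204326 on the plus strand (from -43 to -14) and at chr8:95853508-95853537 on the minus strand (from -46 to -17), with the E-box in capitals.
Slc36a1: ggaatggagcggCACGTGacctgggctagg
Slc38a7: gtgattcaggctCACGTGttacttgagtcg
The E-box was found in the 250 bases before 6.02% of all 32851 starts and 9 of the 68 member starts. Those 9 also include genes that are dim and were not called, such as Slc1a6 and Slc43a1. The letters CACGTG are not in the windows of Slc36a4, Slc38a6, Slc38a9, Slc38a10 and Slc43a2, which fell in both LPS groups too. A part of TFEB in these falls was not tested.

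Other carriers of the SLC38 family gave small differences. Slc38a2, a sodium-coupled glutamine carrier that cells induce when amino acids run short, read 10.85 and 10.85 untreated, 11.16 and 11.11 under IFN-γ/LPS, 11.15 and 10.96 under IL-4/IL-13, and 11.32 and 11.01 under the combination. The 3 stimulated groups overlapped each other, and all lay above untreated. Its calls under IFN-γ/LPS (0.29 ± 0.10, adjusted p = 0.0281) and the combination (0.32 ± 0.10, adjusted p = 0.0196) were lost without either untreated array (adjusted p from 0.0844 to 0.114), and also without either IFN-γ/LPS array (0.102 and 0.0547) or without combination array 1 (0.131). After quantile normalization the differences were 0.05 (adjusted p = 0.717) and 0.11 (adjusted p = 0.382), and without a mean-variance trend the adjusted p was 0.0717 and 0.0568. Slc38a1, its close relative, rose under the combination (0.29 ± 0.08, adjusted p = 0.0124), but not with the mean of its 2 probe sets (0.11, adjusted p = 0.514) or without untreated array 1 (adjusted p = 0.0572) or 2 (0.0852). The third riser under the combination, Slc38a3 (0.34 ± 0.11, adjusted p = 0.025), did not pass without untreated array 1 (0.215) or without combination array 1 (0.0746) or 2 (0.0746), nor after quantile normalization (0.23, adjusted p = 0.1).

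Of the 7 SLC1 genes, which encode glutamate carriers and the neutral amino acid exchangers Slc1a4 and Slc1a5, 3 were called in each comparison with untreated. That is 42.9% each time, beside 51.9% of all genes under IFN-γ/LPS, 20.2% under IL-4/IL-13 and 45.6% under the combination. Slc1a2, the main glial glutamate carrier, read 5.70 and 5.72 untreated, 6.21 and 6.04 under IFN-γ/LPS, 6.07 and 6.35 under IL-4/IL-13, and 6.83 and 6.83 under the combination. The combination stood above all other arrays. Slc1a2 was 2.17-fold higher there than untreated (1.12 ± 0.12, adjusted p = 7e-06), and it exceeded IFN-γ/LPS by 0.70 ± 0.12 (adjusted p = 0.00103) and IL-4/IL-13 by 0.62 ± 0.12 (adjusted p = 0.00109). Its rises under IFN-γ/LPS (0.42 ± 0.12, adjusted p = 0.0118) and IL-4/IL-13 (0.50 ± 0.12, adjusted p = 0.0112) were each lost without untreated array 1 (0.0657 and 0.0864). The first was also lost without IFN-γ/LPS array 1 (0.0868), and the second without untreated array 2 (0.0633) or IL-4/IL-13 array 2 (0.121). Slc1a5, the glutamine exchanger, read 8.07 and 8.12 untreated, 7.62 and 7.79 under IFN-γ/LPS, 8.26 and 8.35 under IL-4/IL-13, and 7.56 and 7.51 under the combination. The LPS groups were lowest. Slc1a5 fell under the combination (-0.56 ± 0.10, adjusted p = 0.000481), and its difference under IFN-γ/LPS (-0.39 ± 0.10, adjusted p = 0.00544) was 0.00 after quantile normalization (adjusted p = 0.985) and -0.30 without IFN-γ/LPS array 1 (adjusted p = 0.0602). Between the 2 groups without shared agents it was 0.60 lower under IFN-γ/LPS than under IL-4/IL-13 (-0.60 ± 0.10, adjusted p = 0.000257).

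The SLC6 family, sodium- and chloride-coupled carriers of neurotransmitters, osmolytes and amino acids, was the largest of those followed. Of its 20 genes, 5 (25%) were called under IFN-γ/LPS, 3 (15%) under IL-4/IL-13 and 3 (15%) under the combination, beside 51.9%, 20.2% and 45.6% of all genes. Slc6a9, the glycine carrier GlyT1, was the member whose rise of at least 2-fold was called under IL-4/IL-13 and not with LPS. It read 6.52 and 6.57 untreated, 6.45 and 6.55 under IFN-γ/LPS, 8.16 and 7.50 under IL-4/IL-13, and 6.90 and 7.01 under the combination. The IL-4/IL-13 arrays were highest, and also the least alike of any replicate pair over the members. Slc6a9 was 2.44-fold higher under IL-4/IL-13 (1.29 ± 0.17, adjusted p = 0.00019). The combination lay 0.87 below IL-4/IL-13 (-0.87 ± 0.17, adjusted p = 0.00116), and IFN-γ/LPS lay 1.33 below it (-1.33 ± 0.17, adjusted p = 3.07e-05). Against untreated, the combination differed by 0.41 ± 0.17 (adjusted p = 0.0685), and this passed in 5 of the 15 alternative settings, among them without IL-4/IL-13 array 1 (0.00868) or 2 (0.00861). Under IFN-γ/LPS the difference was -0.04 ± 0.17 (adjusted p = 0.839), and 0.08 after quantile normalization.

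Slc6a6, the taurine carrier, was the only member that the combination placed below all 3 other groups. It read 12.67 and 12.66 untreated, 12.39 and 12.44 under IFN-γ/LPS, 12.34 and 12.37 under IL-4/IL-13, and 12.04 and 12.05 under the combination. The steps were small, and replicate arrays were close. It fell by 0.25 (-0.25 ± 0.05, adjusted p = 0.00125), by 0.31 (-0.31 ± 0.05, adjusted p = 0.000964) and by 0.62 (-0.62 ± 0.05, adjusted p = 6.39e-07) in the 3 comparisons with untreated. Slc6a8, the creatine carrier, read 9.37 and 9.44 untreated, 8.71 and 8.83 under IFN-γ/LPS, 9.24 and 9.19 under IL-4/IL-13, and 9.48 and 9.42 under the combination. Only IFN-γ/LPS lay well below the rest. Slc6a8 fell there (-0.63 ± 0.08, adjusted p = 4.14e-05) and differed from untreated by 0.04 ± 0.08 under the combination (adjusted p = 0.688), and the 2 LPS groups differed by 0.68 ± 0.08 (adjusted p = 1e-04). Slc6a4, the serotonin carrier, is a dim gene that was higher under the combination (0.80 ± 0.13, adjusted p = 0.00023), with signals of 6.28 and 6.36 beside 5.41 and 5.63 untreated. Slc6a12, a betaine and GABA carrier, was higher under the combination than under IFN-γ/LPS (0.76 ± 0.13, adjusted p = 0.00112), and its rise over untreated (0.50 ± 0.13, adjusted p = 0.00706) did not pass without untreated array 1 (0.48, adjusted p = 0.0554). The dopamine and noradrenaline carriers Slc6a3 and Slc6a2 were not called.

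Setting the combination against each of the other stimuli asks which transporters depend on what is given beside LPS, or on LPS beside IL-4 and IL-13. Against IFN-γ/LPS, 16 of the 64 members were higher under the combination and 2 lower, a share of 28.1% beside 19.7% of all genes. By direction, 25% of members were higher beside 12.1% of all genes, and 3.12% were lower beside 7.62%. The 4 higher by at least 2-fold were Slc7a6 (2.18), Slc7a7 (1.43), Slc38a9 (1.12) and Slc7a2 (1.07). The lower pair were Slc6a6 (-0.37 ± 0.05, adjusted p = 0.000211) and Slc7a9 (-0.40 ± 0.12, adjusted p = 0.034). The Slc7a9 call was lost in 8 of 14 alternative settings, with an adjusted p of up to 0.223 without IFN-γ/LPS array 2. Of the 18 calls, 15 held in all alternative settings that could be fitted.

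Against IL-4/IL-13, 10 members were higher under the combination and 12 lower, a share of 34.4% beside 36.7% of all genes. By direction, 15.6% were higher beside 14.1% of all genes, and 18.8% lower beside 22.6%. The 4 higher by at least 2-fold were Slc7a11 (3.33), Slc7a2 (1.92), Slc7a8 (1.70) and Slc7a7 (1.47), all in the SLC7 family. The 4 lower by at least 2-fold were Slc43a2 (-2.50), Slc36a1 (-1.68), Slc36a4 (-1.29) and Slc43a3 (-1.07). IFN-γ/LPS against IL-4/IL-13 gave 7 members higher and 15 lower, again 34.4%, beside 41.6% of all genes. The lower ones were 23.4% of members beside 26.1% of all genes. The widest falls there were those of Slc43a2 (-2.68 ± 0.10, adjusted p = 3.79e-10) and Slc7a6 (-2.53 ± 0.09, adjusted p = 3.42e-10), and the widest rise that of Slc7a11 (2.71 ± 0.13, adjusted p = 3.87e-09).

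**Figure D4:**
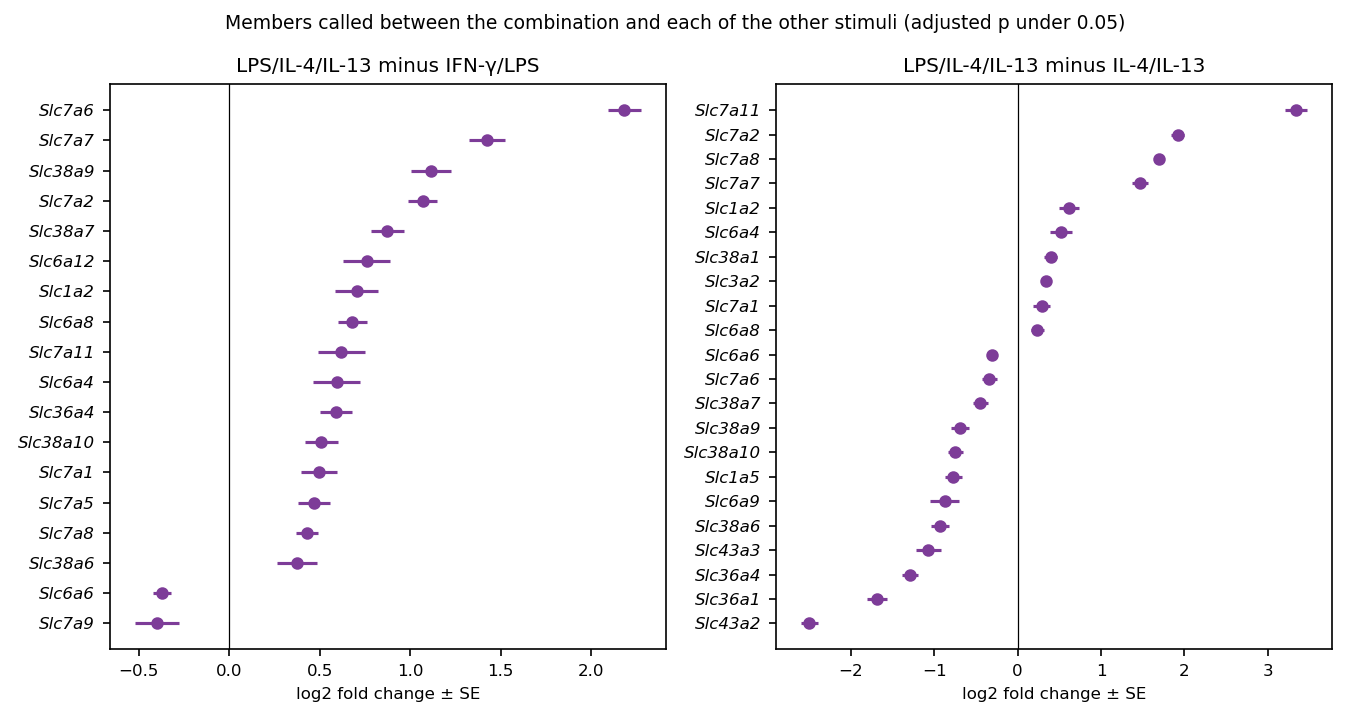
Log2 fold change ± standard error (x axis) of the members called between the combination and IFN-γ/LPS (left, 18 genes) and between the combination and IL-4/IL-13 (right, 22 genes), 2 arrays per group. On the left 16 genes lie above 0, led by Slc7a6 and Slc7a7, and on the right genes of the SLC7 family lead the 10 higher and Slc43a2 the 12 lower.

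In 7 members the combination lay above all 3 other groups, with each of the 3 comparisons called. They were Slc1a2, Slc6a4, Slc7a1, Slc7a2, Slc7a7, Slc7a8 and Slc7a11, beside 588 genes (2.95%) over the whole array. The pattern held in all 14 alternatives tried on it for Slc1a2, Slc7a2, Slc7a7, Slc7a8 and Slc7a11. For Slc7a1 it was lost without untreated array 1 or 2, IL-4/IL-13 array 1 or 2, or combination array 1. For Slc6a4 it was lost without IFN-γ/LPS array 1 (adjusted p = 0.0611 against that group) or IL-4/IL-13 array 1 (0.0588), and with dim genes left out. Slc6a6 alone lay below all 3, beside 358 genes (1.8%).

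Genes that use what the transporters carry were read from lists chosen by known function. The shares to set beside their counts are those of all genes, of which 23.6% rose and 28.4% fell under IFN-γ/LPS, 7.83% and 12.3% under IL-4/IL-13, and 20.3% and 25.4% under the combination. Among 14 measured users of arginine, 7 rose and 4 fell under IFN-γ/LPS (median 0.235), 5 rose and 2 fell under IL-4/IL-13 (0.12), and 6 rose and 3 fell under the combination (0.15). Nos2, the inducible nitric oxide synthase, rose by 7.08 ± 0.10 under IFN-γ/LPS (adjusted p = 4.5e-13) and by 6.72 ± 0.10 under the combination (adjusted p = 6.03e-13), and differed by 0.22 ± 0.10 under IL-4/IL-13 (adjusted p = 0.149). Arg1, arginase 1, rose by 3.45 ± 0.12 under IL-4/IL-13 (adjusted p = 5.34e-09) and by 5.48 ± 0.12 under the combination (adjusted p = 8.24e-12). Arg2, the mitochondrial arginase, rose by 4.17 ± 0.16 under the combination (adjusted p = 5.79e-10). Its signal was 6.45 and 6.24 untreated, 8.83 and 8.40 under IFN-γ/LPS, and 5.96 and 5.60 under IL-4/IL-13. Under the combination, Slc7a2, Nos2, Arg1 and Arg2 each stood above untreated by more than 4 log2 units. Odc1, which makes putrescine from ornithine, rose by 2.32 ± 0.09 under IFN-γ/LPS (adjusted p = 6.99e-10) and by 2.39 ± 0.09 under the combination (adjusted p = 6.91e-10), while Srm, the next enzyme of polyamine synthesis, fell under IFN-γ/LPS (-1.48 ± 0.09, adjusted p = 4.96e-08) and rose under IL-4/IL-13 (1.03 ± 0.09, adjusted p = 8.73e-06).

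Beside the rise of Slc7a11, 18 measured genes of cystine and glutathione use gave 7 higher and 8 lower under IFN-γ/LPS (median -0.0775), 3 and 7 under IL-4/IL-13 (-0.15), and 8 and 8 under the combination (-0.19). The widest difference under IFN-γ/LPS was the rise of Ggct (2.635). Ggct read 5.76 and 5.39 untreated, and 8.13 and 8.29 under IFN-γ/LPS. The 2 subunits of the rate-limiting enzyme of glutathione synthesis fell in every stimulus. Gclc fell by 1.44 ± 0.10 under IFN-γ/LPS (adjusted p = 7.54e-08) and fell by 1.73 ± 0.10 under the combination (adjusted p = 1.78e-08), and Gclm fell by 1.57 ± 0.09 (adjusted p = 1.81e-08) and fell by 1.68 ± 0.09 (adjusted p = 1.24e-08). Srxn1 and Hmox1, which like Slc7a11 are known targets of the regulator NRF2, fell too. Srxn1 fell by 1.74 ± 0.09 (adjusted p = 8.05e-09) and Hmox1 fell by 2.41 ± 0.08 (adjusted p = 1.46e-10) under IFN-γ/LPS, where Slc7a11 rose. Other genes of the list were higher there. Txnrd1 read 9.05 and 9.09 beside 8.83 and 8.81 untreated, and Txn1 read 13.21 and 13.17 beside 12.93 and 12.92. Whether NRF2 had a part in any of these changes was not tested. In the 20 genes of the ATF4 and stress list, 9 rose and 5 fell under IFN-γ/LPS (median 0.235), 3 rose and 1 fell under IL-4/IL-13 (0.1375), and 10 rose and 4 fell under the combination (0.3475). Nupr1 (3.64 ± 0.09, adjusted p = 2.05e-11) and Ppp1r15a (3.20 ± 0.10, adjusted p = 1.37e-10) rose most under IFN-γ/LPS. Asns, which makes asparagine and is a classic ATF4 target, rose under IFN-γ/LPS (0.36 ± 0.13, adjusted p = 0.03), a call that held in 10 of 15 alternative settings, and differed by 0.22 ± 0.13 under the combination (adjusted p = 0.178). Eif2ak3, a kinase of the endoplasmic reticulum stress response, fell by 2.63 ± 0.13 under IFN-γ/LPS (adjusted p = 5.27e-09).

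Most measured genes of the mTORC1 amino acid sensing list fell in both groups with LPS. Of its 32 measured genes, 22 fell and 3 rose under IFN-γ/LPS (median -0.6825, beside 0.105 over all genes), 25 fell and 4 rose under the combination (-0.565), and 7 fell and 1 rose under IL-4/IL-13 (-0.1775). The shares that fell were 68.8%, 78.1% and 21.9%, beside 28.4%, 25.4% and 12.3% of all genes. The widest rise of the list was that of Wdr59, by 1.24 under IFN-γ/LPS and by 1.93 under the combination. The activity of mTORC1 was not measured. Sesn1, a leucine sensor of the sestrin family, fell 32.1-fold under IFN-γ/LPS (adjusted p = 9.1e-11) and fell by 4.67 ± 0.15 under the combination (adjusted p = 1.96e-10). Castor2, of the arginine sensor family, fell by 1.92 ± 0.09 under the combination (adjusted p = 6.57e-09), and Depdc5, a subunit of the complex that restrains mTORC1, fell by 1.75 ± 0.10 under IFN-γ/LPS (adjusted p = 1.76e-08). Lamtor4, part of the lysosomal anchor, fell by 1.71 ± 0.09 (adjusted p = 1.29e-08), and the regulator Tfeb fell by 1.56 ± 0.10 (adjusted p = 6.03e-08), both under IFN-γ/LPS. Rragc, a GTPase of the pathway, differed by -0.09 ± 0.14 under IFN-γ/LPS (adjusted p = 0.594) and fell under IL-4/IL-13 (-1.02 ± 0.14, adjusted p = 0.000189). Carriers outside the name rule included lysosomal genes that moved in either direction. Ctns, the lysosomal cystine exporter, fell by 3.02 ± 0.08 under IFN-γ/LPS (adjusted p = 4.49e-11) and fell by 2.38 ± 0.08 under the combination (adjusted p = 3.93e-10). Slc17a5, the lysosomal sialic acid and acidic amino acid exporter, fell by 2.82 ± 0.09 under IFN-γ/LPS (adjusted p = 1.77e-10). Slc15a3, a lysosomal carrier of histidine and small peptides, rose by 1.82 ± 0.07 under IFN-γ/LPS (adjusted p = 9.04e-10) and by 1.95 ± 0.07 under the combination (adjusted p = 6.31e-10). Cln3, a lysosomal membrane protein named here after its values were seen, rose by 0.44 ± 0.08 (adjusted p = 0.000473) and by 0.48 ± 0.08 (adjusted p = 0.000277). Slc25a22, the mitochondrial glutamate carrier, rose under IFN-γ/LPS by 2.93 ± 0.11 (adjusted p = 5.34e-10). Of those 25 carriers, 9 rose and 10 fell under IFN-γ/LPS, 5 rose and 2 fell under IL-4/IL-13, and 4 rose and 10 fell under the combination.

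**Figure D5:**
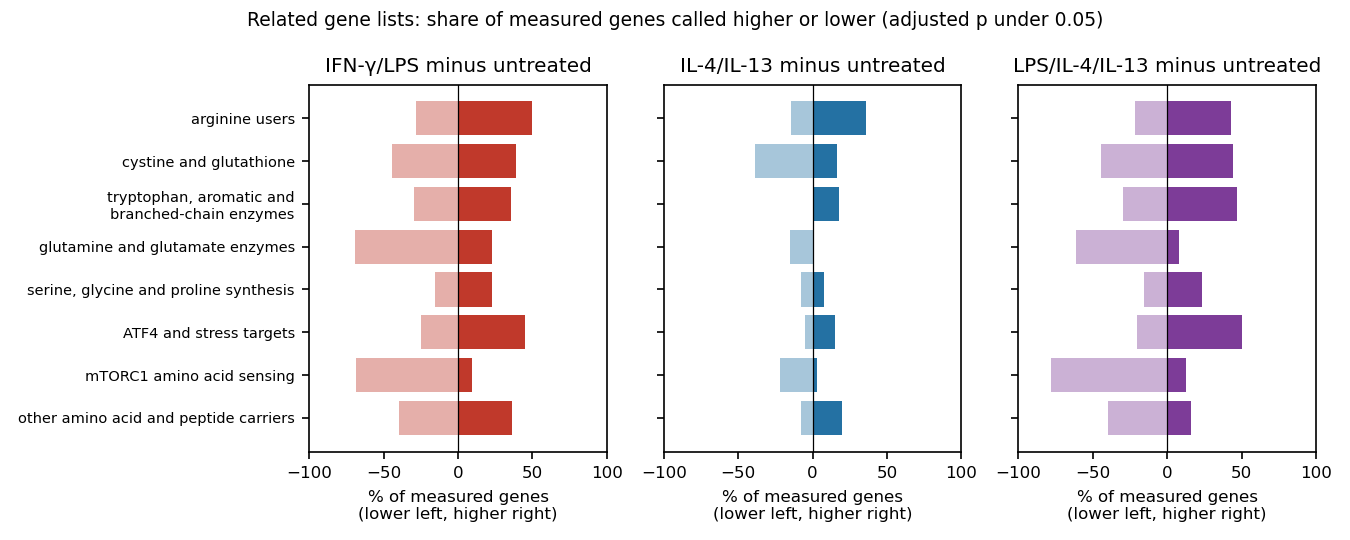
Share (%) of the measured genes of 8 related lists called higher (right of 0, dark) or lower (left of 0, light) against untreated, for each stimulus, by limma at an adjusted p under 0.05. The mTORC1 sensing list has 22 of 32 genes lower under IFN-γ/LPS and 25 under the combination, and the glutamine and glutamate enzymes 9 and 8 of 13.

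Enzymes that act on other transported amino acids moved in both directions. Of 17 enzymes of tryptophan, aromatic and branched-chain amino acids, 6 rose and 5 fell under IFN-γ/LPS (median 0.115), 3 rose and 0 fell under IL-4/IL-13 (0.095), and 8 rose and 5 fell under the combination (0.275). Kynu, which cleaves kynurenine, rose by 3.45 ± 0.11 under IFN-γ/LPS (adjusted p = 1.58e-10), 4.07 ± 0.11 under IL-4/IL-13 (adjusted p = 6.13e-10) and 1.56 ± 0.11 under the combination (adjusted p = 2.29e-07). Ido1, which opens the tryptophan ring, rose by 2.99 ± 0.16 under IFN-γ/LPS (adjusted p = 1.03e-08). Kmo, the next hydroxylase, rose by 2.30 ± 0.11 under the combination (adjusted p = 6.98e-09). Its signal was 7.03 and 6.81 untreated, 6.17 and 6.42 under IFN-γ/LPS, and 8.01 and 8.00 under IL-4/IL-13. The untreated signals of Kynu (5.09 and 5.05) and Ido1 (4.65 and 4.81) lay below 5.91 and are not shown to be above background. Wars, which charges the transfer RNA of tryptophan, rose by 2.37 ± 0.10 under IFN-γ/LPS (adjusted p = 1.39e-09). Of 13 glutamine and glutamate enzymes, 9 fell and 3 rose under IFN-γ/LPS (median -0.49), 2 fell under IL-4/IL-13 (0.07), and 8 fell and 1 rose under the combination (-0.435). Glul, glutamine synthetase, fell by 1.96 ± 0.07 under IFN-γ/LPS (adjusted p = 2.43e-10). Got1, a cytosolic transaminase, fell by 2.23 ± 0.08 under the combination (adjusted p = 4.69e-10). Of 13 genes of serine, glycine and proline synthesis, 3 rose and 2 fell under IFN-γ/LPS, 1 rose and 1 fell under IL-4/IL-13, and 3 rose and 2 fell under the combination. Psat1, of serine synthesis, rose by 2.94 ± 0.11 under IFN-γ/LPS (adjusted p = 4.27e-10), and Mthfd2, of mitochondrial folate metabolism, by 2.07 ± 0.13 under the combination (adjusted p = 4.95e-08).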

How the data were processed

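Total RNA was hybridised to Affymetrix MoGene 1.0 ST arrays after biotin labelling, from RNA with an integrity number above 9, per the labels' protocols. The deposited values are log2 signals by their range (1.46 to 13.71), although the labels call the column a MAS5 signal. The sources used here do not give the authors' background correction and normalization, and no further log or scaling was applied. Of 35556 probe sets, 21789 carried 1 symbol in the platform annotation, 1621 several and 12146 none. The probe set with the highest mean over the 8 arrays stood for each of 19938 genes, and the members had 66 probe sets.

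A single limma 3.58.1 model in R 4.3.3 over the 4 groups (lmFit, contrasts.fit and eBayes with a mean-variance trend, 4 residual degrees of freedom) gave 6 comparisons, which share arrays and are not independent. Benjamini-Hochberg adjustment ran over all 19938 genes, with a call at an adjusted p under 0.05. The script was tested on simulated data. Members given in full were those called with at least 2-fold change and no overlap between groups in a comparison with untreated. From each related list, up to 4 called genes with the largest change and up to 2 others were named per comparison. Other members were named as examples of a role. The members and lists were chosen with earlier results of these data known. Promoters are those of RefSeq in GRCm38.p6, and 250 bases before each start were searched on both strands for 7 motifs. Only the motifs named above are reported.

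Alternatives were quantile normalization, median centring, leaving out genes at or below the 40th percentile, no trend, averaging a gene's probe sets, a block for the replicate number, a fit on just the 4 arrays being compared, and leaving out each array.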

Additional observations from a re-analysis of the deposited data

How the results depend on the processing

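Of 130 calls of members over the 6 comparisons, 94 held in every one of the 15 alternatives that could be fitted, 45 of them higher and 49 lower. Counts of members in each direction stayed within 1.5 times of those reported, except in these cases. Higher under IL-4/IL-13 than untreated (10) ran from 5 to 13 when 1 array was left out, and higher under the combination than untreated (17) from 11 to 18. Lower under the combination than under IFN-γ/LPS (2) was 1 after quantile normalization, with dim genes left out and with only the 4 arrays compared, and ran from 1 to 3 when 1 array was left out. The cause was not tested, beyond fewer genes or arrays where they were left out.

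With the replicate number as a block, the higher and lower counts were 14 and 13 under IFN-γ/LPS, 10 and 5 under IL-4/IL-13 and 18 and 10 under the combination against untreated, and 16 and 2, 9 and 12, and 7 and 15 in the other comparisons. Correlations of replicate differences between groups ran from -0.358 to 0.217. With 2 arrays per group, they cannot tell whether same-numbered arrays shared an animal, culture or day.

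Values that changed sign had all missed the threshold except Slc1a5. Slc1a5 under IFN-γ/LPS against untreated was 0.00 after quantile normalization. Slc6a9 in that comparison was 0.08 after quantile normalization and ran from -0.09 to 0.01 when 1 array was left out, above 0 without IFN-γ/LPS array 1. IFN-γ/LPS minus IL-4/IL-13 in Slc1a2 ran from -0.22 to 0.05 when 1 array was left out, at 0.00 without IFN-γ/LPS array 2 and highest when IL-4/IL-13 array 2 was left out. In Slc7a1 that difference was 0.07 after quantile normalization. Slc7a11 under IL-4/IL-13 ran from -0.36 to 0.01 when 1 array was left out, above 0 without untreated array 1. Among the related lists, the 7 lower mTORC1 genes under IL-4/IL-13 ranged from 2 to 9 over the alternatives, and the 3 higher ATF4 and stress genes there from 0 to 6. Signal over background is unknown without detection calls, and 2 arrays per group limit the precision.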
